A study of Homo sapiens with 2 samples.

Results

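Collagen chains were followed in SK-N-MC cells with and without a melanotransferrin transgene. Members were taken by symbol, as protein-coding genes named COL, a number, A and a number, with probe sets annotated to that gene alone. This gave 43 chains with 112 probe sets, of 19775 genes and 54675 probe sets in all; COL17A1 is not analysed here. SK-N-MC is an established human line called a neuroepithelioma by the submitters and now placed in the Ewing tumour family. Both groups were stably transfected with pCMV-Script, a plasmid that drives its insert from the strong viral CMV promoter. The vector control, numbered 1 in the labels, carried no insert, and the hyperexpression line, clone 4, called the clone from here on, carried human melanotransferrin cDNA, which encodes a membrane-bound homologue of transferrin. Each group was 1 transfected line, whose total RNA was read on 1 Affymetrix U133 Plus 2.0 array. Every value is thus a single measurement with no replicate, and no test of the difference and no p-value is given.

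Collagens are built from chains with long Gly-X-Y repeats, where a glycine at the start of every repeat lets 3 chains wind into a triple helix. Fibrillar collagens pack into the cable-like fibrils of connective tissue, type IV collagen forms the sheet of basement membranes, FACIT collagens lie along the surface of fibrils, and transmembrane collagens are anchored in the cell membrane. Many molecules need different chains in a fixed ratio, so the partners within 1 molecule are given side by side here. Ewing tumour cells are thought to arise from mesenchymal or neural crest cells, 2 lineages known to make collagen.

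Levels are probe set signals on a linear intensity scale. A floor of 208 was the 90th percentile of 191 probe sets for olfactory and taste receptors and hair keratin-associated proteins, which this line should not express. A chain was represented by its brightest probe set, the one with the highest mean signal of both arrays. It counted as measured when that probe set lay above the floor on at least 1 array, and where 1 array lay below the floor the ratio was taken against the floor and is a bound. Differences are log2 ratios of clone over control. The only repeat available was the agreement between probe sets of a gene: over 5387 genes that had at least 2 probe sets over the floor in both lines the pooled SD of their log2 ratios was 0.35, and 0.21 where the dimmest probe set exceeded 2000. That SD leaves out the variation between cultures, clones and arrays. In such bulk RNA a smaller share of expressing cells and less RNA per cell cannot be told apart.

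The transfected gene, MELTF, gave 18.4 in the control and 4449.4 in the clone on the probe set annotated to the insert's transcript; its 3 other probe sets lay at or below 245.8 on both arrays. Both arrays had the same trimmed mean, so directions hold relative to all genes. Scaling on the hybridisation spikes would move the median of all genes from -0.022 to 0.47, and scaling on poly-A spikes to -0.58. Background probe sets read lower in the clone, with medians of 67.4 and 44.0. Of 7 Ewing tumour markers with a value all were above the floor on both arrays, with CD99 at 31465 and 32239 and NKX2-2 at 11550 and 12438. The clone was higher for 6 of the 7, beside 5969 of all 12663 measured genes. The list had a median log2 ratio of 0.15. The largest ratio of the 7 was that of LIPI, at 2892 and 4896.1. Under the floor in both lines were 5 of 8 endothelial, 4 of 6 epithelial, 4 of 5 osteoblast, 2 of 4 Schwann cell and 3 of 6 smooth muscle markers. Of all 19775 genes, 7112 were. Other members of these lists were measured, such as KRT18 at 9759.9 and 10363, ALPL at 2339.2 and 2020.9 and ACTA2 at 1533.3 and 1200.6. EMCN read 930.4 and 597.6. Past 2-fold were KRT8, at 509.9 and 245.6, and CDH5, at 169.2 and 424.8, below the floor in the control. Fibroblast markers other than collagens were mostly present: 8 of 10 were above the floor on both arrays, and the summed signal of all 10 was 42699 in the control and 36809 in the clone. Most of that gap lay in TWIST1, at 20939 and 15266. Of the 8, 6 were lower in the clone, where 52.8% of all measured genes were lower. Among the 6 were PDGFRB at 748.3 and 483.2 and S100A4 at 1191.4 and 830.5. The 2 others, DCN and FAP, were higher, and the median log2 ratio was -0.13.

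SK-N-MC cells carried collagen transcripts of several classes on both arrays, though chains were measured no more often than other genes. Of 43 chains, 18 exceeded the floor in both lines, 4 in the control alone, 2 in the clone alone and 19 in neither. Of all 19775 genes, 10795 exceeded it in both lines. The share measured was 55.8% of chains and 64.0% of all genes. The fibrillar class had 7 of 11 chains measured, all 7 on both arrays. Type IV had 3 of 6, FACIT 6 of 10, type VI 3 of 5 and the transmembrane class 1 of 3. Among the remaining chains, COL18A1, COL7A1, COL8A2 and COL28A1 were measured.

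COL5A1 was the 1 chain that reached 2-fold higher in the clone; COL11A2 and COL9A2 were the 2 that reached 2-fold lower. Over all 12663 measured genes, 1.21% were at least 2-fold higher and 1.9% at least 2-fold lower. Over the 10795 genes above the floor on both arrays, where these 3 chains lie, the shares were 1.11% and 1.16%. Read against these shares, 1 and 2 of 24 chains are too few to say that collagens passed 2-fold more often than other genes. The median log2 ratio of the 24 chains was 0.049, against -0.022 for all measured genes, and 15 of 24 lay above that median. The floor fixed the direction of 6 of the 24, the bounds; over the 18 others the median was 0.23, against 0.0089 for all genes over the floor in both lines. The class medians were 0.017 for the 7 fibrillar chains, 0.45 for the 3 type IV chains, 0.55 for the 3 type VI chains, 1 of them a bound, and -0.38 for the 6 FACIT chains, 2 of them bounds, and the 1 transmembrane chain had a bound of -0.54. Relative to all genes the FACIT median of -0.36 ran from -0.74 to -0.0092 over the other settings.

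**Figure D1:**
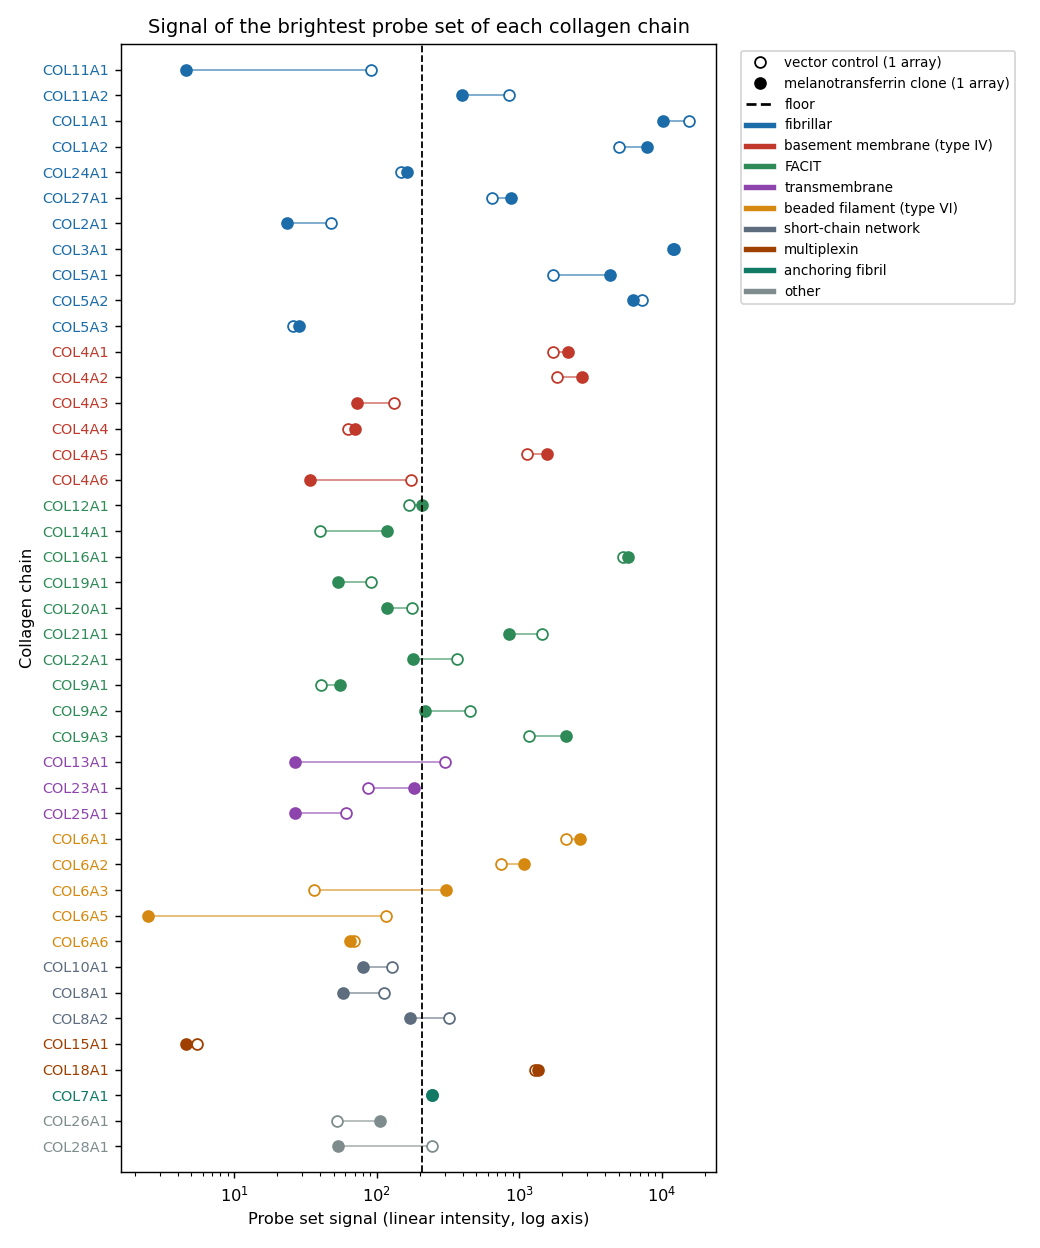
Signal of the brightest probe set of each of 43 collagen chains (rows, coloured by class) on the vector control array (open circles) and the melanotransferrin clone array (filled circles), on a log axis with the floor of 208 dashed. The 18 chains above the floor on both arrays include all 7 measured fibrillar chains, and the 19 chains below it on both lie at or under 181.8.

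The fibrillar class held the brightest chains, with log2 ratios from -1.10 to 1.32 on the brightest probe sets. The lower end was COL11A2, whose second probe set went the other way. The FACIT class ran from -1.06 to 0.86. COL5A1, the alpha 1 chain of type V collagen, which starts and limits the width of collagen fibrils, stood at the upper end. Its 3 probe sets gave 1729, 1876.5 and 1042.5 in the control and 4308, 3364.1 and 2293.2 in the clone. All 3 were higher in the clone, with log2 ratios of 1.32, 0.84 and 1.14 (SD 0.24 between probe sets). Of 1444 genes with 3 probe sets over the floor in both lines, 16.9% had all 3 higher and 0.208%, COL5A1 among them, had all 3 at least as much higher as the lowest of these values. On its brightest probe set the chain was 2.49-fold higher; it stayed higher under all 12 other settings tried and at least 2-fold higher in 10, the exceptions being the poly-A scaling, at 0.71, and probe sets without shared sequence, at 0.84.

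COL5A1 lies on chromosome 9, whose genes were higher in the clone as a whole. The 444 other genes of that chromosome above the floor on both arrays had a median log2 ratio of 0.48, the highest of any chromosome. COL5A1 was 0.84 above that median, and 8 of those 444 genes had a larger ratio. With COL5A1 included, 6.29% of 445 such genes on chromosome 9 were at least 2-fold higher, against 1.11% over all chromosomes. The part of the chromosome's shift in the COL5A1 value was not tested.

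COL5A2, the partner chain of COL5A1 in most type V molecules, did not share the difference. Its 2 probe sets gave 7240.3 and 4123.1 in the control and 6333.5 and 3428.8 in the clone, log2 ratios of -0.19 and -0.27, a gap smaller than the pooled SD between probe sets. The ratios of the partners were thus 1.51 apart on the log2 scale, and the ranges of their probe sets did not overlap. This gap is the same under any scaling of a whole array, and over the 12 other settings it ran from 1.04 to 1.51. COL5A3, the remaining type V chain, read 25.7 and 28.7, under the floor in both lines. COL3A1, which encodes type III collagen of elastic tissues and is the neighbour of COL5A2 on chromosome 2, read 12047 and 12188 on its brightest probe set, a log2 ratio of 0.017. Its other bright probe sets gave -0.12 and -0.011, and a dim one read 340 and 190.4, below the floor in the clone.

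The chains of type I collagen, the main fibrillar collagen of skin and bone, went in opposite directions. COL1A1, present 2 times in each usual type I molecule, was lower in the clone on all 4 of its probe sets above the floor. They gave 15582, 3442.3, 669.7 and 424.3 in the control and 10279, 2077.3, 439.7 and 211.9 in the clone. The log2 ratios were -0.60, -0.73, -0.61 and -1.0, the last from a clone signal close to the floor, with an SD of 0.19 between probe sets. Of 605 genes with 4 probe sets over the floor in both lines, 12.1% had all 4 lower, and 0.165%, which is COL1A1 alone, had all 4 at or under -0.60. Every one of these probe sets carries a suffix that marks shared sequence, so COL1A1 has no value from probe sets without it.

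COL1A2, the other type I chain, was higher on all 3 of its probe sets. They gave 5040.5, 2713 and 536.5 in the control and 7899.9, 3214.1 and 776.6 in the clone, log2 ratios of 0.65, 0.24 and 0.53 (SD 0.21). Of 1444 genes with 3 such probe sets, 3.6% had all 3 at least as high as the lowest of these. The ratios of COL1A2 and COL1A1 were 1.25 apart on the log2 scale, 2.38-fold, and no probe set of one fell within the range of the other. The gap ran from 1.20 to 1.25 over the 11 other settings that gave one. Each chain alone depended more on the scaling. COL1A1 stood at only -0.099 on hybridisation spikes, and COL1A2 at only 0.038 on poly-A spikes. Neither chain reached 2-fold on its brightest probe set. COL1A1 lies on chromosome 17 and COL1A2 on chromosome 7, where other genes had medians of -0.041 and 0.0024.

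**Figure D2:**
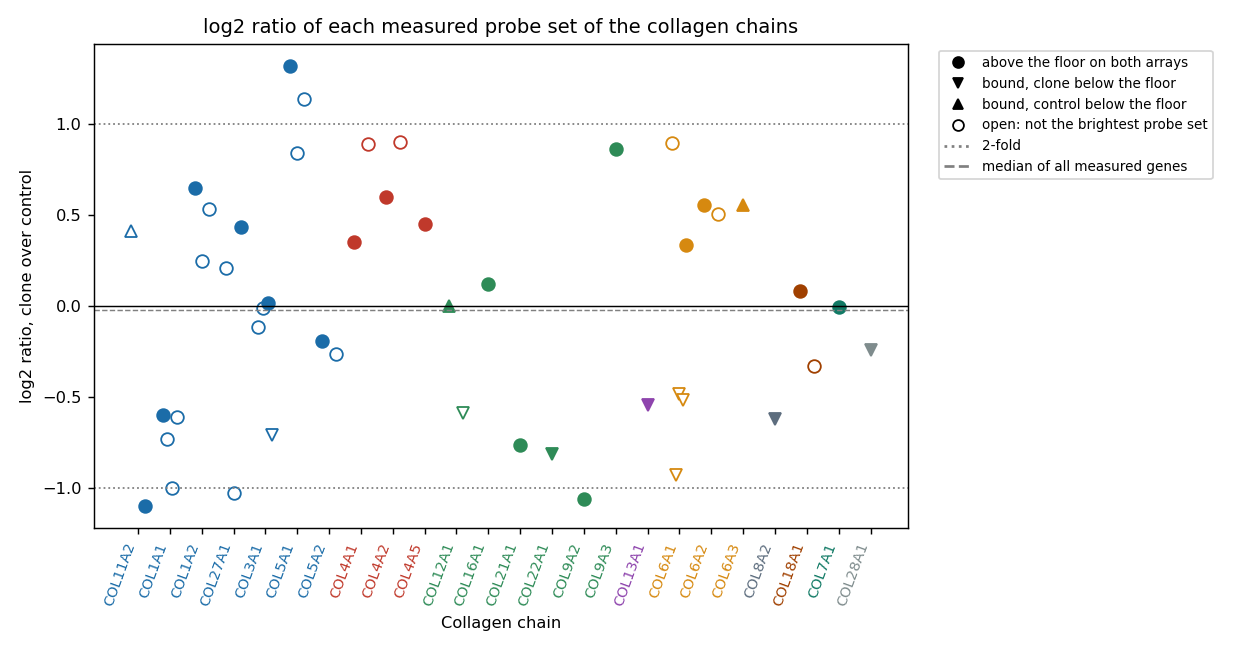
log2 ratio of clone over control (y axis) for each measured probe set of 24 collagen chains (x axis, coloured by class); circles are above the floor on both arrays, triangles are bounds, and filled symbols mark the brightest probe set. All 3 probe sets of COL5A1 lie between 0.84 and 1.32, those of COL1A2 between 0.24 and 0.65 and those of COL1A1 between -1.0 and -0.60, whereas probe sets of COL6A1, COL27A1 and COL11A2 lie on both sides of 0.

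The minor fibrillar chains were less clear because their probe sets disagreed. COL11A2, the alpha 2 chain of the type XI collagen of cartilage fibrils, gave 849.1 in the control and 396.4 in the clone on its brightest probe set, 2.14-fold lower. Its second probe set went the other way, from below the floor to 276.9, so the direction for this chain rests on which probe set is read. COL27A1, a fibrillar chain of developing cartilage on chromosome 9, had 3 probe sets above the floor. They gave 647.3, 587 and 894.4 in the control and 874.7, 678.8 and 439.6 in the clone, log2 ratios of 0.43, 0.21 and -1.02, with an SD of 0.79, over 2 times the pooled SD. Its highest single signal, 894.4, belongs to the probe set that was 2.03-fold lower, and chosen by that signal COL27A1 would be a chain past 2-fold lower; by the mean of both arrays it is represented by the probe set at 0.43. That ratio minus the median of other chromosome 9 genes was -0.043.

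COL11A1, COL2A1 (type II collagen, the main cartilage fibril) and COL24A1 were below the floor on both arrays, with no signal over 163.2. Of 8 chondrocyte markers 5 were measured, and 3 of these, ACAN, MATN1 and SNORC, exceeded the floor in the control alone, which fixed their direction. HAPLN1 read 455.9 and 284.7 and SOX9 544.6 and 599.2, in opposite directions, and COMP, MATN3 and CNMD were below the floor on both arrays. The summed signal of the list was 2441.3 in the control and 1304.1 in the clone. That sum includes signals under the floor, such as COMP at 202 and 7.6 and SNORC at 17.8 in the clone, so no size is read from it. Whether these marker values bear on those of COL11A2 and of COL9A2, another cartilage chain, was not tested.

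Type IV chains, the network of basement membranes, were all higher where measured, though each turned lower under the poly-A scaling. COL4A1 and COL4A2, which join in the ubiquitous type IV molecule, lie head to head on chromosome 13 and are read outward from a common stretch. That stretch is shown because these neighbours moved together, beside windows of the same length before the starts of COL5A1 and COL9A2, chains past 2-fold in either direction. The sequences are from RefSeq, build GRCh38.p14, in which 31 of the 43 chains had a promoter entry. Capitals mark CCAAT (a box bound by NF-Y; ATTGG on the other strand) and GGGCGG (a GC box bound by Sp1-type factors; CCGCCC on the other strand), with overlapping matches counted separately.
COL4A1-COL4A2, all 126 bases between the starts, chr13:110307158-110307283, plus strand: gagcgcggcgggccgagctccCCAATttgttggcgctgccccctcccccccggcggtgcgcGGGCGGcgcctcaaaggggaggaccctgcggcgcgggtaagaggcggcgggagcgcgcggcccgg
COL5A1, the 126 bases before the start, chr9:134641677-134641802, plus strand: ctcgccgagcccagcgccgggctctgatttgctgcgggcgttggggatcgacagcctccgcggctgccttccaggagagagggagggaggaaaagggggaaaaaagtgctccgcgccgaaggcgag
COL9A2, the 126 bases before the start, chr1:40317287-40317412, minus strand: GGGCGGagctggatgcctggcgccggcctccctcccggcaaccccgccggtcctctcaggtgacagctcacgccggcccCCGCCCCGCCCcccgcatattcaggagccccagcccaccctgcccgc

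The stretch between COL4A1 and COL4A2 held 1 CCAAT and 1 GGGCGG, the COL5A1 window neither, and the COL9A2 window 3 matches to GGGCGG and 0 to CCAAT. Of 27305 windows of 126 bases before RefSeq starts, 21.86% held CCAAT and 34.63% GGGCGG on either strand. None of the 3 held TATAAA, the TATA box, on either strand, found in 6.23% of all windows. A match describes these letters and does not show that a factor binds there.

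COL4A1 gave 1726.3 and 311.1 in the control and 2198.2 and 576.2 in the clone on its 2 probe sets, log2 ratios of 0.35 and 0.89. COL4A2 gave 1835.1 and 416 in the control and 2774.4 and 775.4 in the clone, log2 ratios of 0.60 and 0.90. Both probe sets of both chains were thus higher in the clone, which 27.2% of 2969 genes with 2 probe sets above the floor also showed. The share with both at least as high as the lower value was 4.51% for COL4A1 and 1.01% for COL4A2. The partners differed from each other by 0.25, less than the pooled SD between probe sets. Under the poly-A scaling, which lowers every gene alike, both turned to -0.26 and -0.014.

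Chromosome 13 had the second highest median of all chromosomes, 0.13 over the 208 other genes above the floor, and 13 of these had a larger ratio than COL4A2 and 45 than COL4A1. The part of that shift in these values was not tested. COL4A5, an X-linked chain of kidney, ear and skin basement membranes, read 1141.8 and 1557.8, a log2 ratio of 0.45 on 1 probe set. Under the poly-A scaling COL4A5 stood at -0.16. COL4A3 and COL4A4, its partners in the glomerular network, and COL4A6 were below the floor on both arrays. Neighbouring type IV genes were therefore measured together on chromosome 13 and were below the floor together on chromosome 2 (COL4A3 and COL4A4), whereas on the X chromosome COL4A5 was measured and COL4A6 read 173.3 and 33.9.

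Type VI collagen forms beaded filaments around cells, from the chains of COL6A1, COL6A2 and COL6A3. COL6A2 gave 739.8 and 262.2 in the control and 1085.1 and 372.3 in the clone on its 2 probe sets, log2 ratios of 0.55 and 0.51. Of genes with 2 such probe sets, 1.75% had both at least as high as the lower value. Under the poly-A scaling COL6A2 stood at -0.057. COL6A1, its neighbour on chromosome 21, gave 2126.1 and 273.5 in the control and 2678.9 and 508.4 in the clone on the 2 probe sets over the floor in both lines, log2 ratios of 0.33 and 0.89. Its 3 other measured probe sets went the other way, from 396.2, 297 and 290.7 in the control to 131.4, 104.1 and 156.3 in the clone, all below the floor there. The median over its measured probe sets was -0.48, so the direction of COL6A1 depends on the probe sets used.

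COL6A3, the long chain of the molecule, gave 36 in the control, under the floor, and 305.7 in the clone. The signal was at least 1.47-fold higher by the floor used, with 1 probe set and no second reading. COL6A5 and COL6A6, alternatives to COL6A3, were below the floor on both arrays. Other genes of chromosome 21 had a median of 0.031, with 5 of 116 above COL6A2.

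**Figure D3:**
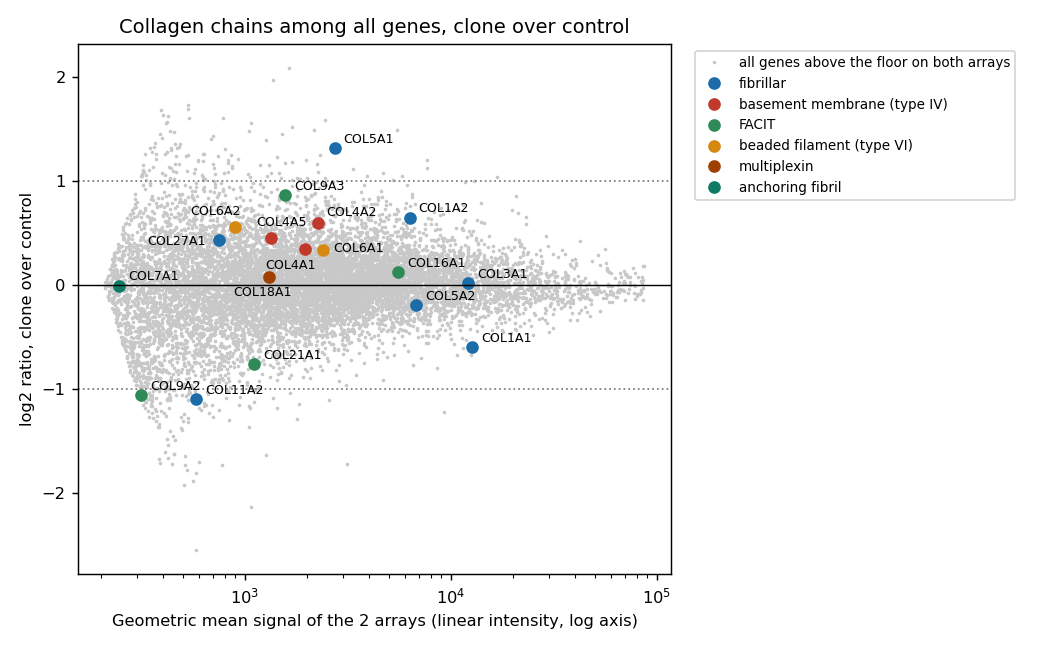
log2 ratio of clone over control (y axis) against the geometric mean signal (x axis, log scale) for genes above the floor on both arrays; each grey point is a gene and coloured points are the 18 collagen chains by class. COL5A1 at 1.32 lies above the 2-fold line, COL1A2 at 0.65 and COL1A1 at -0.60 lie on opposite sides among bright genes, and COL11A2 and COL9A2 lie just below the lower 2-fold line among dim genes.

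FACIT chains pointed both ways. COL9A2 and COL9A3 encode 2 of the 3 chains of type IX collagen, which coats cartilage fibrils. COL9A3 gave 1165.5 in the control and 2118.9 in the clone, 1.82-fold higher on its 1 probe set, and 2 of 323 other genes of chromosome 20 had a larger ratio. COL9A2 read 451.7 and 216.8, 2.08-fold lower, with a clone signal just above the floor. It was lower in all 12 other settings but reached 2-fold in 7, and stood at -0.99 under lowess, -0.92 under quantile scaling, -0.91 with an offset of 50, -0.56 on hybridisation spikes and -0.12 with the floor 2 times as high. Its second probe set, at 41.6 and 181.1, did not reach the floor. The ratios of these partners were 1.92 apart on the log2 scale, and 0.98 with the floor 2 times as high. The first type IX chain, COL9A1, was below the floor on both arrays.

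COL21A1, a FACIT chain of vessel walls, read 1445 and 851.5, 1.70-fold lower on 1 probe set. COL22A1, a chain of tissue junctions, read 365.8 and 179.8 and was at least 1.76-fold lower. COL16A1 had the brightest FACIT probe set, at 5305.5 and 5764.4 with a log2 ratio of 0.12. COL12A1, which links fibrils in tendon, read 168.3 and 208.2 on 1 probe set and 312.6 and 14.2 on another, so that bounds point both ways. COL14A1, COL19A1 and COL20A1 were below the floor on both arrays.

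The transmembrane class was near background. COL13A1, a chain of the neuromuscular junction, gave 303.3 in the control and 26.8 in the clone, at least 1.46-fold lower, and its 2 other probe sets were below the floor. COL23A1 read 87.4 and 181.8 and COL25A1 61 and 26.5. Direction cannot be told for either chain, since both lie under the floor on both arrays.

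Among the other classes, COL18A1, the basement membrane multiplexin whose end fragment is endostatin, gave 1280.4 and 1147.8 in the control and 1353.9 and 911.8 in the clone, log2 ratios of 0.081 and -0.33. COL7A1, the anchoring fibril of skin, read 245 and 244. COL8A2, a short chain of the cornea, read 319.8 and 171.3, and COL28A1 read 245.8 and 53.1, at least 1.54-fold and 1.18-fold lower. COL8A1, COL10A1 of growth plate cartilage, COL15A1 and COL26A1 were below the floor on both arrays.

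There were 10 chains whose brighter signal was 2000 or more, all over the floor in both lines. Of these, 8 were higher in the clone and 2, COL1A1 and COL5A2, lower. Of all genes in that range 3037 of 5549 were higher. COL4A1, COL4A2, COL5A1 and COL9A3 reached 2000 in the clone alone and so entered the range through their higher signal. The count of 8 is thus partly set by how the range was chosen, and no direction is read from it. Of the 8 measured chains under 500, 6 exceeded the floor on 1 array alone, which fixed their direction, so no direction is read from that range. Of all measured genes in that range 2110 of 3082 were lower. Of measured genes, 11.3% exceeded the floor in the control alone and 3.49% in the clone alone; the counts for chains were 4 and 2 of 24. The clone array also had the lower background, and its part in the dim chains was not tested.

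Of 31 measured genes that modify, fold and process collagen, 0 passed 2-fold by the brightest probe set. Over all measured genes 1.21% were at least 2-fold higher and 1.9% lower, so with 31 genes nothing is read from that count. Of the 31, 23 were lower in the clone and 8 higher, where 52.8% of all measured genes were lower. Their median was -0.14, against -0.022 for all measured genes. In the list of hydroxylation and sugar-adding enzymes, 10 of 12 were lower. P4HB, the beta subunit of prolyl 4-hydroxylase, read 12128 and 11566, and CRTAP, a cofactor of prolyl 3-hydroxylation, 7873.2 and 5927.9. The lysyl hydroxylases PLOD3 and PLOD2 differed in direction, at 5347.7 and 4271.3 for PLOD3 and 3386.6 and 4550.6 for PLOD2, log2 ratios of -0.32 and 0.43.

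In the folding and export list 5 of 8 were lower, near the share of all genes. SERPINH1, the collagen chaperone HSP47, read 14132 and 9292.5, a log2 ratio of -0.60 on 1 probe set. PPIB, a prolyl isomerase, read 17412 and 16178, FKBP14, another isomerase, 4673.5 and 4952.4, and SEC23A, a coat protein of export vesicles, 3268 and 2761.8. Their log2 ratios were -0.11, 0.084 and -0.24. Other FKBP14 probe sets gave 0.60 and -0.30, so the direction of FKBP14 depends on the probe set.

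Of 5 measured genes for propeptide removal 4 were lower, 1 of them, ADAMTS2, a bound. ADAMTS3, a procollagen N-proteinase, was the exception, at 412.9 and 816, 1.98-fold higher on 1 probe set. PCOLCE, an enhancer of C-propeptide removal, read 8468.9 and 7850.2, BMP1, the C-proteinase itself, 555.7 and 478.9, and PCOLCE2 427.5 and 393.2. Other BMP1 probe sets over the floor in both lines gave log2 ratios of -0.78 and 0.29, so its direction depends on the probe set. In the cross-linking list 4 of 6 were lower, 1 of them, LOXL4, a bound. LOX and LOXL1, lysyl oxidases, had log2 ratios of -0.32 and -0.22, and LOXL2 read 417.8 and 239.5. Other LOX probe sets gave -0.15 and -1.22, the last from a clone signal of 219.9, close to the floor. PXDN, a peroxidase that cross-links type IV collagen, read 6118.7 and 7414, a log2 ratio of 0.28. Its other probe set read 2365.8 and 2075.6, a log2 ratio of -0.19, so its direction also depends on the probe set.

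**Figure D4:**
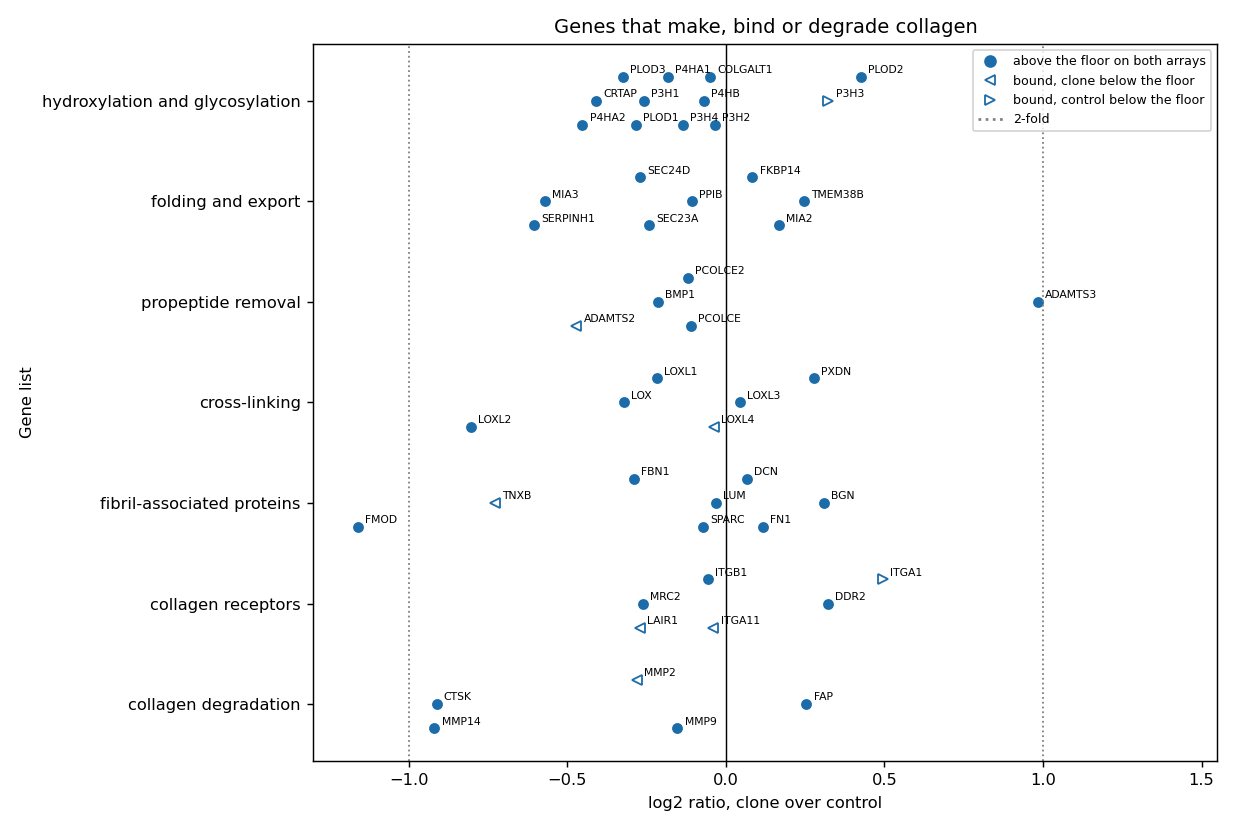
log2 ratio of clone over control (x axis) for the brightest probe set of each measured gene in 7 lists (y axis). The lists hold genes that make, bind or degrade collagen, and vertical offsets within a list only separate labels. Filled circles are above the floor on both arrays and open triangles are bounds; FMOD at -1.16 is the 1 gene past 2-fold, and ADAMTS3 at 0.98 lies closest to it on the other side.

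Proteins that lie on fibrils and receptors for collagen had medians near that of all genes, at -0.051 over 8 and -0.047 over 6 measured members. FMOD, fibromodulin, a regulator of fibril width, read 524.3 and 234.7, 2.23-fold lower on 1 probe set, and was the 1 member of the pathway lists past 2-fold. The small proteoglycans DCN and LUM read 9941 and 10407, and 3354.1 and 3282.7; SPARC and fibronectin (FN1) had log2 ratios of -0.070 and 0.12. Of the receptors, the integrin subunit ITGB1 read 16769 and 16138, the collagen-sensing kinase DDR2 8330.9 and 10419, and the uptake receptor MRC2 3022.8 and 2521.1. Other DDR2 probe sets gave log2 ratios of -0.0039, -0.23 and -0.078, so its direction depends on the probe set. ITGA1, a collagen-binding integrin subunit, read 141.8 and 293.1, below the floor in the control.

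Of 5 measured collagen-degrading enzymes 4 were lower, 1 of them, MMP2, a bound, beside 52.8% of all genes. By the brightest probe set 0 of the 5 passed 2-fold, where 1.21% of all measured genes were 2-fold higher and 1.9% lower. The median of the 5 relative to all genes was -0.26. It ran from -0.92 with the floor 2 times as high to -0.074 on poly-A spikes, so no size is read from it. CTSK, cathepsin K, which cleaves type I collagen within the helix, read 6423.7 and 3413.4, 1.88-fold lower on 1 probe set. MMP14, a membrane-bound collagenase, read 1080.3 and 571.5, 1.89-fold lower, and MMP9, a gelatinase, 334.8 and 301.2. FAP, a membrane peptidase, read 1486.7 and 1772.9. MMP1 and MMP13, secreted collagenases, were below the floor on both arrays.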

How the data were processed

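Per the submitters' processing notes, GCOS 1.3 was used; how probe signals were summarised and to what target they were scaled is not given in the sources used here. Deposited values are linear intensity values, 1 per probe set and array, and the mean after trimming 2% at each end was 999.88 on both arrays, so they had been scaled per array. Such scaling hides a change shared by most genes.

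Names came from the platform annotation of 2016 (41097 with 1 gene symbol, 1801 with several, 11777 with none here); only those with 1 were used. Symbols were updated by gene ID through RefSeq (GRCh38.p14), which matched 41043. That table also gave chromosomes and neighbours. Log2 ratios, the floor of 208, counts at 2-fold and medians were computed in Python 3.11.15 with numpy 2.4.6, pandas 2.3.3 and statsmodels 0.14.6. Simulated data were used to try the recovery of changes well past 2-fold in bright genes and of the pooled SD. The floor, the bounds and the medians were not tested in that way. The number of arrays limits the precision.

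All chains were accounted for; from the other lists, members past 2-fold and up to 4 of the brightest per list were named. Of genes below the floor, some list members were named for their role. The members and lists were chosen with earlier results of these data known. Other scalings, floors and choices of probe set were tried. Protein sequences, planned for a look at the helix repeats, were not used here.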

Additional observations from a re-analysis of the deposited data

How the results depend on the processing

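Medians here are relative to that of all measured genes, and each list has few members. No paired analysis was possible because each group holds 1 array and the clones share no number. As reported, 1 chain was at least 2-fold higher and 2 lower, 153 and 240 of all genes, and the relative medians were 0.070 for the chains, 0.039 for fibrillar, 0.47 for type IV, -0.36 for FACIT and -0.52 for transmembrane chains, -0.11 for biosynthesis, -0.025 for receptors and -0.26 for degradation genes. Scaled on hybridisation spikes, 5 chains were higher and 0 lower, 918 and 57 of all genes, and degradation stood at -0.57. Scaled on poly-A spikes, 0 chains were higher and 5 lower, 17 and 1518 of all genes, receptors stood at 0.16 and degradation at -0.074. Centred on all genes, FACIT stood at -0.74 over 5 chains, because COL12A1 dropped below the floor. Under lowess and under quantile scaling, 1 chain was lower. With the floor times 0.5, 2 chains were higher and 5 lower, 350 and 1065 of all genes, FACIT stood at -0.19 and degradation at -0.87. With the floor times 2, 1 chain was lower, 71 and 47 of all genes were higher and lower, and the medians were 0.32 for chains, -0.0092 for FACIT and -0.92 for degradation. With a floor per array, 401 genes were lower and degradation stood at -0.54. With an offset of 50 and no floor, all 43 chains counted as measured, 2 were higher and 6 lower, 702 and 1705 of all genes, FACIT stood at -0.092 and degradation at -0.43. With the median of probe sets, 1 chain was lower and the chains stood at -0.049. On probe sets without shared sequence, 0 chains were higher and 1 lower, COL11A2 turned to 0.41, fibrillar chains stood at 0.43, receptors at 0.15 and degradation at -0.59. In settings added after seeing the data, a floor of 171 from background genes without pseudogenes gave 389 lower genes and FACIT at -0.030, and leaving out chromosome 9 put fibrillar chains at -0.17. Fewer or other probe sets enter under each floor and probe set choice; beyond that the cause was not tested. The remaining 111 values of counts and medians stayed within 1.5 times the count, or within the pooled SD between probe sets over the root of the number of members. COL1A1 was lower in each of the 11 settings that measured it, and COL1A2 and COL5A1 were higher in each of 12. The smallest of these values were -0.099 for COL1A1, 0.038 for COL1A2 and 0.71 for COL5A1.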
